A study of Mus musculus with 6 samples.

Results

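The neurotrophins are a small family of secreted growth factors that control the survival, growth and synapses of neurons. Bdnf encodes brain-derived neurotrophic factor and Ntf3 encodes neurotrophin-3. BDNF binds the receptor tyrosine kinase TrkB (Ntrk2), neurotrophin-3 binds mainly TrkC (Ntrk3), and all neurotrophins bind the p75 receptor (Ngfr), a member of the TNF receptor family. Sortilin (Sort1) is a VPS10-domain receptor that sorts BDNF inside the cell and acts with p75 as a receptor for uncleaved proneurotrophins. In the cerebellum, BDNF signalling through TrkB is known for its part in the survival and migration of granule neurons. These 6 genes, chosen by symbol, are 6 of the 55341 symbols in the count tables, and all 6 passed the filter on low counts, as did 16729 genes in all.

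RNA was sequenced from cultured mouse cerebellar granule neurons (CGNs) treated with GSK-126, an inhibitor of EZH2, the enzyme that places the repressive histone mark H3K27me3, or with the solvent DMSO (n = 3 libraries per group). Both groups came from CD-1 pups about a week old, whose granule neuron progenitors were isolated on a Percoll gradient and plated, and both received AraC, which stops the division of other cells. The inhibitor or DMSO was added once, at DIV3, and cultures were lysed at DIV5 according to the study's methods, while the labels give DIV3 and name the tissue as cerebellum. The dose used at DIV3 is not given in the sources used here, and a replicate is a culture from pooled litters. The comparison asks how inhibiting EZH2 in young postmitotic neurons alters the RNA of the neurotrophin system. Between 7407189 and 13092763 reads per library were counted on genes. The replicate numbers paired the libraries, since same-numbered libraries of both groups deviated together, so each change is given from edgeR's quasi-likelihood test without and with the replicate number as a block. The fit without the block called 0 of 16729 genes (0%) at an adjusted p under 0.05, although 665 had an unadjusted p under 0.05, and DESeq2 without the block called 21. The fit with the block called 1412 genes (8.44%), of which 851 (5.09%) were lower with GSK-126.

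The cultures expressed granule neuron markers, with all 15 markers tested over 1 CPM in every library, where CPM is the count scaled to library size with TMM factors. Markers of other cells were present too. The summed level of 12 astrocyte and Bergmann glia markers ranged from 2915 to 8670 CPM in the DMSO libraries and from 2799 to 8984 CPM in the GSK-126 libraries, and that of 9 fibroblast and meningeal markers was 8974 to 12681 CPM and 10020 to 14098 CPM. These are bulk libraries, in which fewer cells of a type and less RNA per cell cannot be told apart.

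Of the 250-base windows upstream of annotated transcription starts (RefSeq, build GRCm38.p6), 11 belonged to 4 of the 6 genes, and no window was given for Ntrk3 and Sort1. The window of Ntrk2 is shown because, of the Trk receptor genes that were called, it was the one with a window. It lies at chr13:58806319-58806568 on the plus strand, and its 19 CpG dinucleotides are in capitals.
Ntrk2 upstream window: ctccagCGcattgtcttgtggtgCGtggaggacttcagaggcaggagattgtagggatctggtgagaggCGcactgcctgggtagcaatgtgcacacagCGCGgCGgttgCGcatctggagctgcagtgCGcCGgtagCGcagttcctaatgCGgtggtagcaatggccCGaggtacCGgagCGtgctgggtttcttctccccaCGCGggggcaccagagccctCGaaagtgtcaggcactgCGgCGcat
Its GC content was 62.8%, against a median of 52.4% over 32851 windows of the same length, and 19.7% of all windows held at least as many CpGs (median 6). The window of Ngfr, which was not called, had a GC content of 70.4% and 16 CpGs. The Bdnf window at chr2:109692186-109692435, plus strand, is shown because it was the one among 7 Bdnf windows to hold a half-site of the cAMP response element, the motif through which CREB drives activity-dependent Bdnf transcription. The half-site was searched as TGACG on either strand (CGTCA on the other) and is in capitals.
Bdnf upstream window: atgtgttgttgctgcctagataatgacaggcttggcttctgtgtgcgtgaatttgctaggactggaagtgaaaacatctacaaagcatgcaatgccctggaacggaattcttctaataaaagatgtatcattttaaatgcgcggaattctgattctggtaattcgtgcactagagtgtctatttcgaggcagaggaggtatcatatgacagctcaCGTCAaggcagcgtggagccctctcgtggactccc
This window had a GC content of 45.6% and 9 CpGs. A half-site was found in 17.8% of all windows. The full palindrome TGACGTCA, which contains the half-site on both strands, was in 1.55% of them and in none of the 11 windows of the neurotrophin genes. No histone mark was measured in these libraries, and a match to letters is not a binding site.

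Levels were compared between genes as CPM per kilobase of merged GENCODE M21 exons. The receptors Ntrk2 and Sort1 had the highest levels. Ntrk2 averaged 24.4 CPM per kb over the 6 libraries (range 19.9 to 30.4) and Sort1 21.9 (range 21.3 to 22.8), so their ranges overlapped. Ntf3 followed with 16.4 CPM per kb (range 13.6 to 18.5) and Ntrk3 with 7.17 (range 5.42 to 9.61). Ngfr, at 1.10 CPM per kb (range 0.581 to 1.79), and Bdnf, at 0.645 (range 0.260 to 1.03), were the lowest of the 6 and overlapped each other. Of all genes tested, 86.6% had a lower level per length than Ntrk2 and 7.3% a lower level than Bdnf. Neurotrophin-3 RNA was therefore far more abundant in these cultures than BDNF RNA. The levels of Ntrk2 and Ntrk3 depend most on the length used, since their merged exons of 19292 and 30170 bp include many alternative transcripts. Per kilobase of the longest protein-coding transcript, a length chosen after the data were seen, the order of the genes was the same, but Ntrk2 stood apart from Sort1 with 53.9 CPM per kb (range 43.8 to 67.1) against 24.3 (range 23.6 to 25.2).

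**Figure D1:**
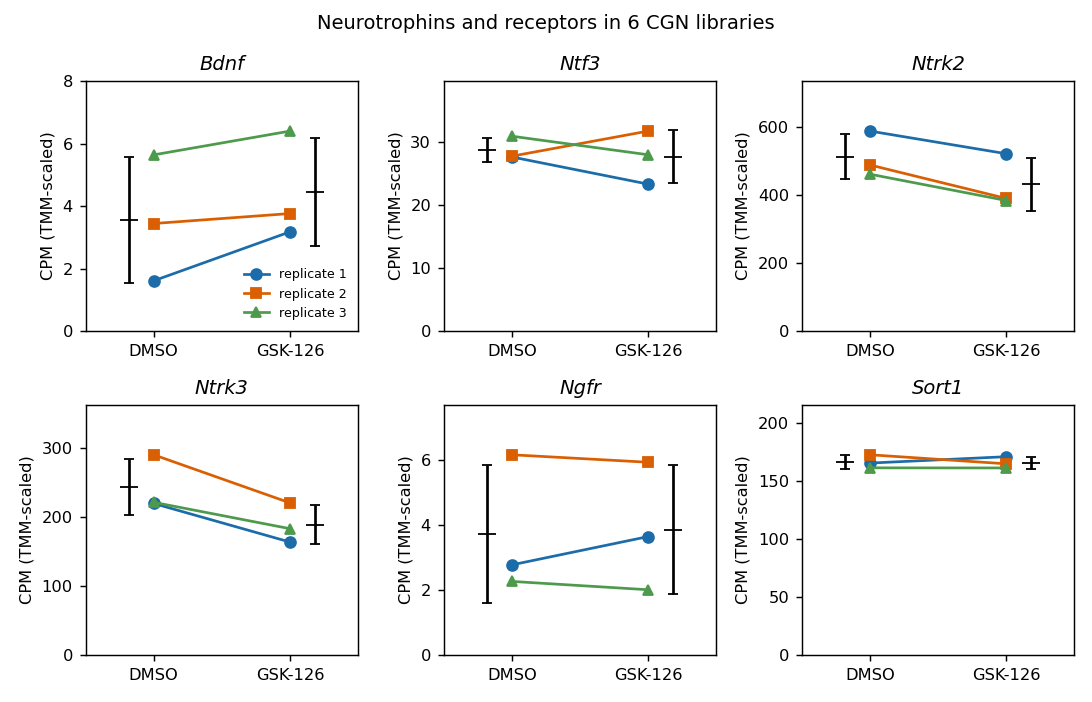
Level of each gene in CPM (TMM-scaled) in the DMSO and GSK-126 libraries, with same-numbered libraries joined by a line, one colour and marker per replicate number, and black bars giving the mean ± SD of each group (n = 3). All 3 lines of Ntrk2 and Ntrk3 fall, all 3 of Bdnf rise, and replicate 2 is highest for Ngfr in both groups.

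The Trk receptors were lower with GSK-126 in every pair, and in the fit with the replicate block both were called. Ntrk3 fell by 22.4% and Ntrk2 fell by 16.1%. Thus 2 of the 6 genes were called, both lower, against 8.44% of all genes called in either direction and 5.09% called lower. Without the block, 0 of the 6 were called. The groups overlapped for all 6 genes, while 9.44% of all genes tested had groups that did not overlap.

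Ntrk3 (ENSMUSG00000059146.12, GRCm38 chromosome 7, 78175959 to 78738012, minus strand) encodes TrkC. It was at 219, 290 and 221 CPM in DMSO replicates 1 to 3 and at 163, 220 and 183 CPM in the GSK-126 replicates with the same numbers. Replicate 2 was the highest library of both groups, and GSK-126 replicate 2 lay between DMSO replicates 1 and 3, so the groups overlapped although each GSK-126 library was below its partner. The mean fell from 243 ± 40.3 CPM (SD, n = 3) to 189 ± 28.9 CPM (SD, n = 3). The log2 fold changes within pairs were -0.42, -0.40 and -0.27. In edgeR without the block the log2 fold change was -0.37 (standard error 0.17, 95% interval -0.76 to 0.024, adjusted p = 0.953), and with the block it was -0.37 (standard error 0.073, 95% interval -0.52 to -0.21, adjusted p = 0.00268). The call held when any 1 pair was left out of the fit with the block, with adjusted p-values of 0.0419, 0.0150 and 0.00270 in edgeR without pairs 1, 2 and 3.

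Ntrk2 (ENSMUSG00000055254.15, GRCm38 chromosome 13, 58806569 to 59133970, plus strand) encodes TrkB. It was at 587, 488 and 461 CPM in DMSO replicates 1 to 3 and at 521, 389 and 383 CPM in GSK-126 replicates 1 to 3. Replicate 1 was the highest library of both groups, and GSK-126 replicate 1 was above DMSO replicates 2 and 3. The mean fell from 512 ± 66.6 CPM (SD, n = 3) to 431 ± 77.6 CPM (SD, n = 3), with log2 fold changes of -0.17, -0.32 and -0.26 within pairs. The log2 fold change was -0.25 (standard error 0.17, 95% interval -0.65 to 0.16, adjusted p = 0.953) without the block in edgeR and -0.25 (standard error 0.069, 95% interval -0.40 to -0.11, adjusted p = 0.0248) with it. This call needed all 3 pairs: leaving out pair 1, 2 or 3 gave adjusted p-values of 0.0591, 0.0999 and 0.108 with log2 fold changes of -0.28, -0.22 and -0.25. Among the genes called lower with the block, 96.4% fell more than Ntrk2 and 64.5% fell more than Ntrk3. Their median log2 fold change was -0.43. That set holds only genes past the threshold, and the median over all genes tested was -0.0056.

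Lower levels in all 3 pairs were also found for 22.8% of all genes tested. DESeq2 with the block called Ntrk2 (adjusted p = 0.00845) and Ntrk3 (adjusted p = 7.75e-04) as well.

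**Figure D2:**
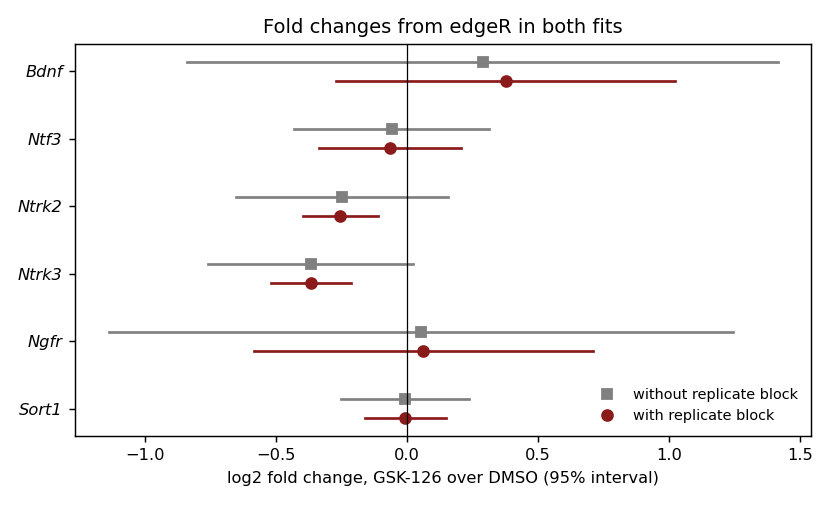
Log2 fold change (GSK-126 over DMSO) of each gene with its 95% interval from edgeR, without the replicate block (grey squares) and with it (dark red circles), from 3 libraries per group. With the block the intervals of Ntrk2 (-0.40 to -0.11) and Ntrk3 (-0.52 to -0.21) lie below 0, and those of the other genes include 0.

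Ntrk2 and Ntrk3 each produce full-length receptors with a kinase domain and truncated receptors without it, and the counts pool them. Of the 7 protein-coding transcripts annotated for Ntrk2, 2 encode 821 residues, and the remaining 5 encode 466 to 492. Of the 6 for Ntrk3, 4 encode 825, 839, 864 and 612 residues, and the other 2 are annotated as incomplete. Which of these forms carried the lower counts was not measured. The balance of the receptors was read within each library from the ratio of their counts, which needs no scaling between libraries. There were 1.68 to 2.68 Ntrk2 counts for each Ntrk3 count with DMSO and 1.77 to 3.18 with GSK-126. The log2 ratio was 1.08 ± 0.335 (SD, n = 3) with DMSO and 1.19 ± 0.437 (SD, n = 3) with GSK-126, a difference of 0.11 (exact permutation test, two-sided, p = 0.6, where 0.1 is the smallest that 3 against 3 libraries allow). Within pairs the ratio was 0.25, 0.072 and 0.0093 higher with GSK-126 (two-sided exact paired permutation test, p = 0.25, which is the lowest for 3 pairs). A difference between the declines of the receptors was therefore not shown.

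In each group, the replicates of Ntrk3 had the same order as those of the granule neuron markers. The astrocyte and Bergmann glia, microglial and oligodendrocyte marker sums had the reverse order in each group. Ntrk2 shared only its highest replicate with the glial markers. The summed level of the 15 granule neuron markers was 6718, 11012 and 8069 CPM in DMSO replicates 1 to 3 and 5261, 8569 and 6359 CPM in GSK-126 replicates 1 to 3. Like Ntrk3, it was highest in replicate 2 and lower with GSK-126 in every pair, by log2 changes of -0.35, -0.36 and -0.34, and 11 of the 15 markers were called lower with the block in edgeR and 0 higher. Among the called markers the log2 fold changes ran from -1.95 for Slc17a7, the vesicular glutamate transporter, to -0.25 for Fat2, and the 4 not called, Pax6, Zic2, Cntn2 and Reln, had values from -0.21 to -0.070 (edgeR with the block). The part of this marker change in the lower Ntrk3 and Ntrk2 counts was not tested. The astrocyte and Bergmann glia markers had summed levels of 8670, 2915 and 4875 CPM in the DMSO libraries and 8984, 2799 and 4833 CPM in the GSK-126 libraries. They were highest in replicate 1 of both groups, as Ntrk2 was, but changed by only 0.051, -0.059 and -0.012 on the log2 scale within pairs, with 2 of 12 markers called higher and 0 lower. The level of Ntrk2 in replicates 2 and 3 did not follow their order. This match was not particular to astroglia. In replicate 1 of both groups the microglial sum (531 and 648 CPM) and the oligodendrocyte sum (787 and 800 CPM) were highest as well. Other marker lists, though not all, moved as well. The 8 GABAergic interneuron markers had summed levels of 239 to 264 CPM with DMSO and 182 to 214 CPM with GSK-126, which did not overlap, with log2 changes of -0.22, -0.36 and -0.54 in the pairs and 3 markers called lower. The microglial sum was higher by 0.29, 0.54 and 0.22 on the log2 scale in the pairs, with 3 of 9 called higher and Trem2 at 0, and those of endothelial and mural cells by 0.58, 0.32 and 0.30, with 2 of 10 called higher. The oligodendrocyte sum was higher by 0.023, 0.21 and 0.19, with 1 of 9 called. The sums of granule neuron progenitor and Purkinje cell markers went both ways in the pairs. They changed by 0.18, -0.042 and 0.054, and by 0.084, -0.042 and -0.078. Of the progenitor markers, Barhl1 was called higher and Ptch1 lower (edgeR with the block). Of the Purkinje cell markers, Slc1a6 was called higher in the same fit. The part of these lists in the Trk result was not tested. Truncated TrkB is known to be made by astrocytes, and the counts do not separate it.

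**Figure D3:**
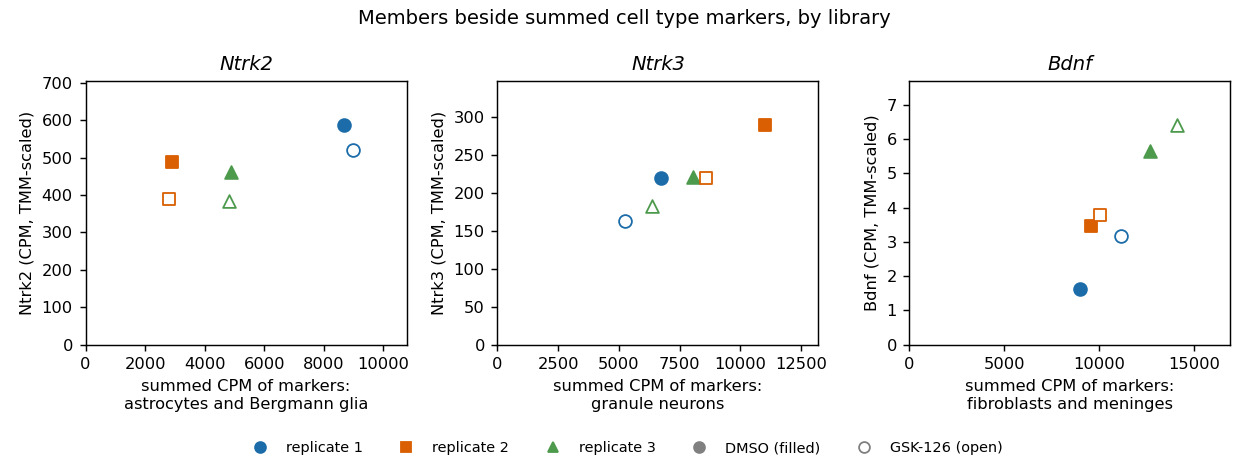
Level of Ntrk2, Ntrk3 and Bdnf (CPM) against the summed CPM of the markers of astrocytes and Bergmann glia, granule neurons, and fibroblasts and meninges, one point per library, with DMSO filled, GSK-126 open and the marker shape giving the replicate number. Replicate 1 is highest for Ntrk2 and the glial markers, replicate 2 for Ntrk3 and the granule neuron markers, and replicate 3 for Bdnf and the fibroblast markers.

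Neither ligand gene was called. Bdnf (ENSMUSG00000048482.14, GRCm38 chromosome 2, 109674700 to 109727007, plus strand) had 1.61, 3.45 and 5.65 CPM in DMSO replicates 1 to 3, from 14, 37 and 65 counts, and 3.18, 3.77 and 6.41 CPM in GSK-126 replicates 1 to 3, from 42, 35 and 48 counts. Each GSK-126 library was above its partner, as for 19.5% of all genes tested, but the replicates of a group differed more than the groups did. The means were 3.57 ± 2.02 CPM and 4.45 ± 1.72 CPM (SD over 3 libraries). With the block the log2 fold change was 0.38 (SE 0.31, 95% interval -0.27 to 1.02, adjusted p = 0.529 in edgeR), an interval that holds both a large rise and a small decrease. Within pairs the log2 fold change was 0.98 in pair 1 and 0.13 and 0.18 in pairs 2 and 3. Leaving out the low DMSO replicate 1 turned the log2 fold change without the block from 0.29 to -0.034, and leaving out GSK-126 replicate 3 turned it to -0.054. Bdnf has 11 protein-coding transcripts from 9 annotated starts, which the counts pool, and 896 bp of its exons overlap Gm45346 on the opposite strand. The 9 fibroblast and meningeal markers were highest in replicate 3 of both groups (12681 and 14098 CPM summed), as Bdnf was. Their sum was also higher with GSK-126 in each pair, by 0.31, 0.070 and 0.15 on the log2 scale, with the largest difference in pair 1, as for Bdnf. Fn1 and Col1a2 were called higher and Slc6a13 lower with the block in edgeR. In GSK-126 replicates 1 and 2 the fibroblast sum (11138 and 10020 CPM) had the reverse order of Bdnf. This match was not particular to fibroblasts. The sum of the 10 endothelial and mural markers was also highest in replicate 3 of both groups (738 and 908 CPM). It too was higher with GSK-126 in each pair, by 0.58, 0.32 and 0.30 on the log2 scale, most in pair 1. The part of either marker list in the Bdnf values was not tested.

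Ntf3 (ENSMUSG00000049107.13, GRCm38 chromosome 6, 126101412 to 126166910, minus strand) had 27.6, 27.7 and 30.9 CPM in DMSO replicates 1 to 3 and 23.3, 31.7 and 27.9 CPM in GSK-126 replicates 1 to 3. The GSK-126 values spanned the range of the DMSO values, and the pairs went both ways, with log2 fold changes of -0.24, 0.19 and -0.14. The means were 28.7 ± 1.86 CPM and 27.6 ± 4.21 CPM (SD over 3 libraries). With the block, the log2 fold change was -0.063 with a 95% interval of -0.33 to 0.21 (adjusted p = 0.833 in edgeR).

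The other receptors were not called either. Sort1 (ENSMUSG00000068747.14, GRCm38 chromosome 3, 108284082 to 108361511, plus strand) was the steadiest of the 6, at 165, 173 and 161 CPM in DMSO libraries and 171, 165 and 161 CPM in GSK-126 libraries. Its log2 fold change with the block was -0.0067 (SE 0.074, adjusted p = 0.973 in edgeR), and the 95% interval of -0.16 to 0.15 leaves out a change as large as that estimated for Ntrk2. Of its exons, 338 bp overlap Gm12523 on the opposite strand. Ngfr (ENSMUSG00000000120.6, GRCm38 chromosome 11, 95568818 to 95587735, minus strand) was at 2.77, 6.15 and 2.26 CPM in DMSO libraries and 3.64, 5.92 and 2.00 CPM in GSK-126 libraries, from 15 to 66 counts per library. Replicate 2 was the highest in both groups, and the pairs differed by 0.39, -0.055 and -0.17 on the log2 scale. The 95% interval with the block, -0.59 to 0.71 around 0.063, includes changes as large as that of Ntrk3 in either direction (adjusted p = 0.933 in edgeR).

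The ratio of ligand or p75 counts to Ntrk2 counts was compared within libraries. There were 0.00275 to 0.0123 Bdnf counts per Ntrk2 count with DMSO and 0.00612 to 0.0167 with GSK-126. The log2 ratio was -7.33 ± 1.09 and -6.65 ± 0.727 (SD over 3 libraries), a difference of 0.68 (exact permutation test, two-sided, p = 0.5). It was higher with GSK-126 in all 3 pairs, by 1.15, 0.45 and 0.45 (two-sided exact paired permutation test, p = 0.25). The log2 ratio of Ngfr to Ntrk2 was -7.24 ± 0.804 with DMSO and -6.93 ± 0.797 with GSK-126 (SD over 3 libraries), and it was higher by 0.57, 0.27 and 0.091 in the pairs (exact paired permutation test, two-sided, p = 0.25). These are 3 ratios with the one between the receptors, and none could pass a threshold of 0.05 with 3 pairs.

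Ntf5, which encodes neurotrophin-4, the other ligand of TrkB, was read for context. It had 2 to 6 counts in every library, was below the filter and was not tested.

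Around these genes, 155 tested genes of 8 hand-written lists cover the trafficking of neurotrophins, signalling from their receptors and the control of Bdnf. With the block, 28 of them (18.1%) were called, 10 higher and 18 lower, against 8.44% of all genes, and 0 were called without it. The lists were written with earlier results of these data known, so the difference between these shares is not evidence of an excess. They are described by their counts and medians, and no list was tested as a set. All adjusted p-values of list genes are from edgeR with the block. The median log2 fold change over all genes tested was -0.0056.

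In the trafficking lists, 18 genes for the processing and secretion of proneurotrophins held 3 called higher and 6 called lower, with a median log2 fold change of -0.12. Cadps2, a dense-core vesicle priming protein known to promote BDNF release in the cerebellum, fell from 750 ± 309 to 420 ± 195 CPM (SD over 3 libraries), which is a log2 fold change of -0.86 (adjusted p = 1.5e-07). The prohormone convertase Pcsk2 fell by 0.73 on the log2 scale (adjusted p = 3.3e-05), from 84.4 ± 22.5 to 51.3 ± 15.6 CPM (SD over 3 libraries). Of 7 VPS10 receptors and their GGA adaptors, Sorl1, a relative of sortilin that sorts cargo between Golgi and endosome, fell by 0.54 on the log2 scale (adjusted p = 2.2e-04), from 219 ± 42.0 to 149 ± 8.75 CPM with no overlap between the groups (SD over 3 libraries). The adaptor Gga2 rose by a log2 fold change of 0.33 (adjusted p = 0.0297), a call lost in DESeq2 with the block (adjusted p = 0.0950) and without pair 1, 2 or 3 (adjusted p = 0.0632, 0.127 and 0.0850 in edgeR). The median of these 7 was -0.0040, and their other members, like Sort1, were not called.

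On the receptor side, 47 adaptors and signalling genes downstream of Trk had a median log2 fold change of -0.073, with 7 called lower and 0 higher. The calmodulin kinase Camk4, which phosphorylates CREB, fell by 0.67 on the log2 scale (adjusted p = 1.5e-05), from 143 ± 49.8 to 88.8 ± 25.7 CPM (SD over 3 libraries). The Rac activator Tiam1 fell by 0.60 (adjusted p = 0.00236) and the ribosomal S6 kinase Rps6ka1 by 0.55 (adjusted p = 8.1e-05) on the same scale. The call of Tiam1 was lost without pair 2 (adjusted p = 0.0739). Of 18 partners and adaptors of p75, Bex1 and Bex3 rose, with log2 fold changes of 0.45 (adjusted p = 0.0392) and 0.40 (adjusted p = 0.010), and the Nogo receptor partner Lingo1 fell by 0.27 (adjusted p = 0.0281). Each of these 3 calls was lost in some fits with the block. Bex1 was lost in DESeq2 (adjusted p = 0.132) and without pair 1 or 2 (0.0762 and 0.295), Bex3 without pair 2 (0.119), and Lingo1 with total counts (0.0615) and without pair 1 or 3 (0.177 and 0.204). The list median was 0.035.

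Among 20 genes known to be induced by Trk signalling, 2 rose and 1 fell, and the median was 0.054. Fos rose from 23.0 ± 3.51 to 39.5 ± 16.4 CPM (SD over 3 libraries), which is a log2 fold change of 0.73 (adjusted p = 0.00222), and Junb by 0.40 (adjusted p = 0.0165), while the ERK phosphatase Dusp5 fell by 0.57 (adjusted p = 7.2e-05). Fos was lost without pair 2 (adjusted p = 0.0748), and Junb in DESeq2 with the block (0.0550) and without pair 1 or 2 (0.0610 and 0.116). Of 20 regulators of Bdnf transcription, the repressor Bhlhe40 rose by 0.61 (adjusted p = 5.2e-04). The activity-dependent factor Mef2d fell by 0.28 (adjusted p = 0.0372), both on the log2 scale. Mef2d was lost in DESeq2 with the block (adjusted p = 0.0663), with total counts (0.0564) and without pair 2 or 3 (0.225 and 0.121). In all, 1 of these 20 was called higher and 2 lower. The median of this list was -0.097. Of 24 genes of other neurotrophic factors and their receptors, 1 was called: the heparin-binding factor Mdk rose by 0.33 (adjusted p = 0.0241), a call lost without pair 2 (adjusted p = 0.154), and the list median was 0.13.

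**Figure D4:**
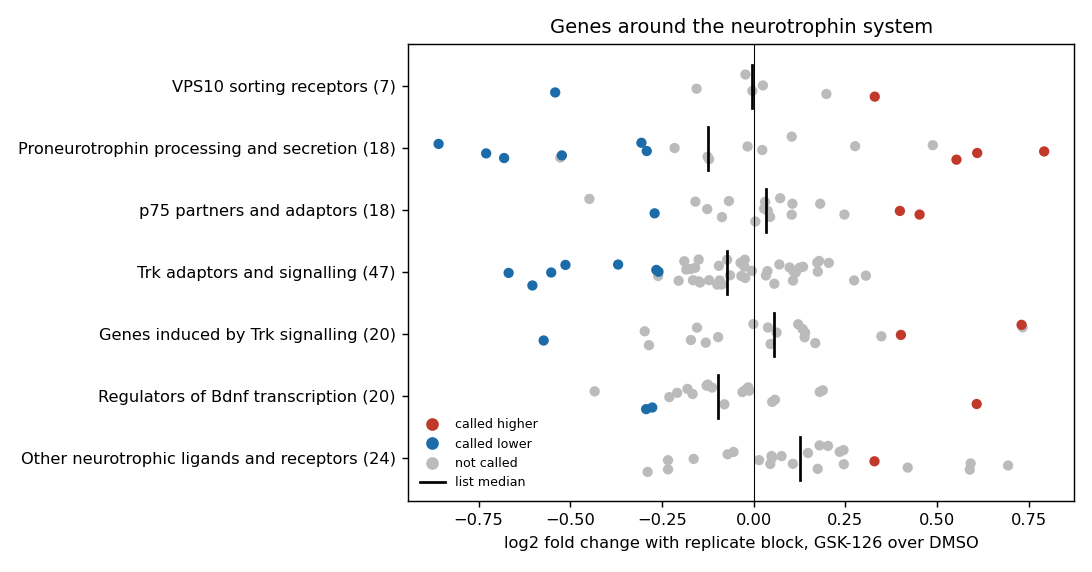
Log2 fold change with the replicate block (GSK-126 over DMSO) of each tested gene of the lists with more than 1 tested gene, with the number tested in parentheses, red for genes called higher, blue for genes called lower, grey for those not called and a black bar at the list median. The 7 called genes among the Trk adaptors all lie below 0, and the calls of the processing and secretion list lie on both sides.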

How the data were processed

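RNA was measured by poly-A RNA-seq in 6 CGN libraries, grouped by their labels. The authors trimmed reads with Trimmomatic 0.38, aligned them with STAR 2.7.2b to GRCm38 and used HTSeq to count reads on exons, and deposited raw counts per gene, with no normalization. The strand setting is not given in the sources used here, so reads of overlapping antisense genes cannot be told apart. The 55341 symbols were those of GENCODE M21, which gave identifiers and coordinates. Lines that name no gene (58.7% to 60.7% of the reads listed) were left out. They include reads assigned to no exon, which were 45.3% to 46.6% of the reads listed, and ambiguous reads, which were 0.88% to 1.1%.

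Counts were tested in R 4.3.3 with edgeR 4.0.16 (TMM, filterByExpr, quasi-likelihood test), fitted on 16729 genes, with Benjamini-Hochberg adjustment over all of them. CPM values are scaled by TMM factors. The main test had no block. The replicate numbers come from the titles, and libraries were correlated after subtracting each group's mean log2 CPM. The correlations were 0.544, 0.606 and 0.467 between same-numbered libraries, so a fit blocked on the number stands beside it. Those between others were at most 0.000562. The deviations within a group cancel out, so positive values for the same-numbered libraries lower the others by construction. The biological coefficient of variation was 24.0% without and 9.74% with the block. DESeq2 1.42.0, other scalings and filters, and each library or pair left out were alternatives. The p-values of the fit without the block measure the spread between cultures. Those with the block and of the paired tests measure the spread of the treatment difference between pairs. Bdnf and Ngfr had 14 to 66 counts per library.

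The 6 genes and all lists were chosen with earlier results of these data known. Named genes are the 6, other neurotrophin genes, up to 3 called genes per list with the largest change, and the 3 genes most like each of the 6. Some genes that this rule names are not reported here. Marker genes were named after their values were seen.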

Additional observations from a re-analysis of the deposited data

How the results depend on the processing

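Without the replicate block, no tool, scaling, filter or omitted library brought 1 of the 6 genes past the threshold. Adding the block brought Ntrk2 (log2 fold change -0.25) and Ntrk3 (-0.37) past it, as did the block with DESeq2 (-0.25 and -0.36) and with total counts (-0.22 and -0.33). With the block and without pair 1, 2 or 3, Ntrk3 stayed past it at -0.32, -0.35 and -0.41 and Ntrk2 did not. The count of genes called rose from 0 to 1412 with the block, 21 with DESeq2, 951 with DESeq2 and the block, 1421 with total counts and the block, 10 with no filter, 716 with the block at an adjusted p under 0.01, and 1088, 833 and 1277 with the block and without replicates 1, 2 and 3. Of the list genes, 28 were called with the block, and 21, 16 and 25 with the block and without replicates 1, 2 and 3, alternatives added after the data were seen.

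Several small values changed sign, and the cause was not tested. Bdnf went to -0.034 when DMSO replicate 1 was left out, and to -0.054 for GSK-126 replicate 3. Ntf3 went to 0.068 without GSK-126 replicate 1 and 0.042 with the block and without replicate 1. Ngfr went to -0.095 and -0.21 when DMSO replicates 1 and 3 were left out, -0.36 for GSK-126 replicate 2, and -0.084 with the block and without replicate 1. Sort1 went to 0.028 with total counts, upper quartiles, or total counts and the block, 0.0090 with no filter, 0.011 with at least 10 counts, 0.0051 and 0.023 when DMSO replicates 1 and 2 were left out, 0.015 and 0.013 for GSK-126 replicates 2 and 3, and 0.026 with the block and without replicate 2. The ratio of Ntrk2 to Ntrk3 went to -0.052 when DMSO replicate 2 was left out and -0.13 for GSK-126 replicate 1, and that of Ngfr to Ntrk2 to -0.13 without GSK-126 replicate 2. Without DMSO replicate 2, Mef2d went to 0.027 and Mdk to -0.046.

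Leaving out 1 library at a time gave log2 fold changes of -0.054 to 0.79 for Bdnf, -0.15 to 0.068 for Ntf3, -0.39 to -0.12 for Ntrk2, -0.47 to -0.22 for Ntrk3, -0.36 to 0.63 for Ngfr, -0.027 to 0.023 for Sort1, -0.51 to 0.027 for Mef2d and -0.046 to 0.62 for Mdk. They were -1.01 to -0.14 for Dusp5, -1.25 to -0.45 for Cadps2, -0.91 to -0.38 for Camk4, -0.79 to -0.30 for Tiam1, 0.40 to 0.95 for Fos, -0.73 to -0.33 for Rps6ka1, -0.98 to -0.48 for Pcsk2 and -0.46 to -0.10 for Lingo1. Sorl1, Pcsk2, Cadps2, Rps6ka1, Camk4, Dusp5 and Bhlhe40 stayed past the threshold in each fit with the block. The ratios ranged from -0.13 to 0.29 for Ntrk2 to Ntrk3, 0.098 to 1.18 for Bdnf to Ntrk2 and -0.13 to 0.77 for Ngfr to Ntrk2. Apart from the calls above, the block changed no call of the 6 genes.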

Other observations

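The genes whose log2 CPM was most like that of each member over the 6 libraries were listed as a description, among 12147 or 12148 genes with a mean log2 CPM over 3. The 3 highest of so many genes were taken over only 6 libraries, so high values are easily reached. Differences between replicate pairs and treatments are also shared by many genes. For Ntrk3 they were Cnksr2 (Pearson r = 0.9979), Luc7l3 (0.9977) and the sodium channel gene Scn2a (0.9955), and for Ntrk2 the axonal adhesion gene Nfasc (0.9933), Gucd1 (0.9932) and Pcyox1 (0.9759). Bdnf was most like the collagen gene Col1a1 (0.9971), Stx7 (0.9899) and Rin1 (0.987). Ntf3 was most like the neuronal nitric oxide synthase gene Nos1 (0.9978), 4921524J17Rik (0.9806) and Snap47 (0.962). The genes most like Ngfr were Urgcp (0.9956), Leng9 (0.9911) and Fsd1l (0.9907), and those most like Sort1 were Gm37206 (0.9882), Zfp1 (0.9771) and Fam124a (0.9769).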
